A study of Homo sapiens with 12 samples.

Results

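Cyclins and the cyclin-dependent kinases (CDKs) that they activate were followed here as a set of 10 genes, the D-type cyclins CCND1, CCND2 and CCND3, the E-type cyclins CCNE1 and CCNE2, the A- and B-type cyclins CCNA2, CCNB1 and CCNB2, and the kinases CDK1 and CDK2. Members were found by gene symbol, and all 10 were present once in each of the 2 gene tables, which list 25914 genes. The study compared 10 µM Nutlin-3a with DMSO after 24 h in RPE-1 hTERT cells, an immortalized noncancerous epithelial line from the retina, and in HCT116 cells, an epithelial cancer line from the colon. Both lines carry the label wild-type, and each of the 4 groups had 3 RNA sequencing libraries, 12 in all. Nutlin-3a is an MDM2 inhibitor that stabilizes the transcription factor p53.

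The level reported below is the base mean, the authors' mean of normalized read counts, which pools libraries into 1 value per gene. It was identical in both tables for all 25914 genes and therefore belongs to no single cell line or treatment. The number of libraries behind it is not given in the sources used here, and neither is the number of reads per library. Values per library were not analysed here, so that no value below has a replicate error and no difference was tested. The direction and the size of the response of these genes to Nutlin-3a are not reported. The same limit holds for the difference between RPE-1 and HCT116 cells. Cell identity could not be checked per line for the same reason. Of 10 marker genes, 8 were in the tables. The epithelial keratins KRT8 and KRT18 had base means of 138619 and 67572, the epithelial adhesion genes CDH1 and EPCAM 13336 and 2480, and the mesenchymal gene VIM 63458. The colon genes CDX2 and KRT20 had 248.0 and 35.1, and the retinal pigment epithelium gene BEST1 67.9, while RLBP1 and RPE65 of the same tissue were not listed.

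Progress through the cell cycle is driven by kinases that are active only when bound to a cyclin. D-type cyclins act with CDK4 and CDK6 in G1, E-type cyclins with CDK2 at entry into S phase, cyclin A with CDK2 and later CDK1, and B-type cyclins with CDK1 in mitosis. In p53 biology, the inhibitor p21, encoded by CDKN1A, restrains these kinases, and the DREAM complex binds promoters of G1/S and G2/M genes, where E2F sites and the cell cycle genes homology region (CHR) are the known DNA elements. CCAAT boxes bound by NF-Y are frequent in G2/M promoters.

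Because E2F sites and the CHR are textbook elements of the route from p53 to the mitotic genes, the promoter letters of the members are shown first. CCAAT boxes were searched as well. RefSeq windows on GRCh38.p14, each with 250 bases before and 50 bases after a start, were given for 6 members in 9 windows, and for CCND1, CCND2, CCNE2 and CDK2 no window was used here. Searched on both strands were the CHR letters TTTGAA and TTCGAA, the CCAAT box CCAAT, and the E2F letters TTTGGCGC, TTTCGCGC, TTTCCCGC and TTCCCGCC. The E2F letters TTTCCCGC and TTCCCGCC overlap by 7 bases. Among all 35116 windows of the same length, 16.4% held a CHR match, 34.6% a CCAAT box and 5.03% an E2F match. A match is a description of letters and was not tested for binding. Only these exact letters were searched, so a site with other letters was missed, and a missing match does not show a missing site.

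Stretches before the start that hold matches are printed for CCNA2 and the mitotic genes, 5′ to 3′ on the strand of the gene, with every match in capitals, so that ATTGG is a CCAAT box on the other strand. The stretch of CCNA2 is chr4:121823932-121823942 on the minus strand. For CDK1 the plus strand was read at chr10:60778347-60778360, chr10:60778397-60778417, chr10:60778429-60778439 and chr10:60778462-60778473. CCNB1 was read at chr5:69167060-69167102 and CCNB2 at chr15:59105023-59105125, both on the plus strand. Left out are the farthest CCAAT box of CCNB2 and the CHR match after the downstream CDK1 start. Also left out are the CHR match and the CCAAT box found only in the upstream CDK1 window.
CCNA2: ttcATTGGtcc
CDK1 E2F: ttcTTTCGCGCtct
CDK1 CCAAT and CHR: ctgATTGGctgcTTTGAAagt
CDK1 second CCAAT: ccgATTGGtga
CDK1 CHR nearest the start: gagTTTGAAact
CCNB1: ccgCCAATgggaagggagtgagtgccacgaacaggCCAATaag
CCNB2: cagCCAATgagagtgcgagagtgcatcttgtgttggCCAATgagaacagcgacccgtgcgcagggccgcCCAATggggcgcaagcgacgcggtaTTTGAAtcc

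CDK1, the mitotic kinase, was the one member with matches of all 3 kinds in a window, a combination found in 0.216% of all windows. RefSeq gives CDK1 a pair of windows that overlap. The upstream one, chr10:60778081-60778380, had 1 CHR match, 1 CCAAT box and 1 E2F match. The downstream one, chr10:60778228-60778527, had 3 CHR matches, 2 CCAAT boxes and the same E2F match. The stretches printed for CDK1 come from the downstream window and all lie after the upstream start. In the upstream window the E2F match begins 19 bases after the start.

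CCNB2, a B-type cyclin, had 4 CCAAT boxes, which began 244, 120, 87 and 54 bases before the start, and 1 CHR match 29 bases before it. Its last 3 CCAAT boxes are evenly spaced. CCNB1, the other B-type cyclin, had 2 CCAAT boxes, 87 and 55 bases before the start, and no match to the CHR letters searched. CCNA2, the cyclin of S and G2 phase, had 1 CCAAT box 56 bases before the start and no match to the CHR or E2F letters searched. CCNE1 and the first of the 3 CCND3 windows, chr6:42048639-42048938, had no match to any of the letters searched. Both of the other CCND3 windows had 1 CCAAT box. The windows of the mitotic kinase and cyclins thus held CCAAT boxes at every start, as did CCNA2 and 2 of the 3 CCND3 windows. Among all windows, 34.6% held a CCAAT box. A CHR match and a CCAAT box stood together at CDK1 and CCNB2, as in 6.38% of all windows. The window of CCNE1 had the highest share of G and C, 81.0%, and the upstream CDK1 window had the lowest, 47.7%.

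**Figure D1:**
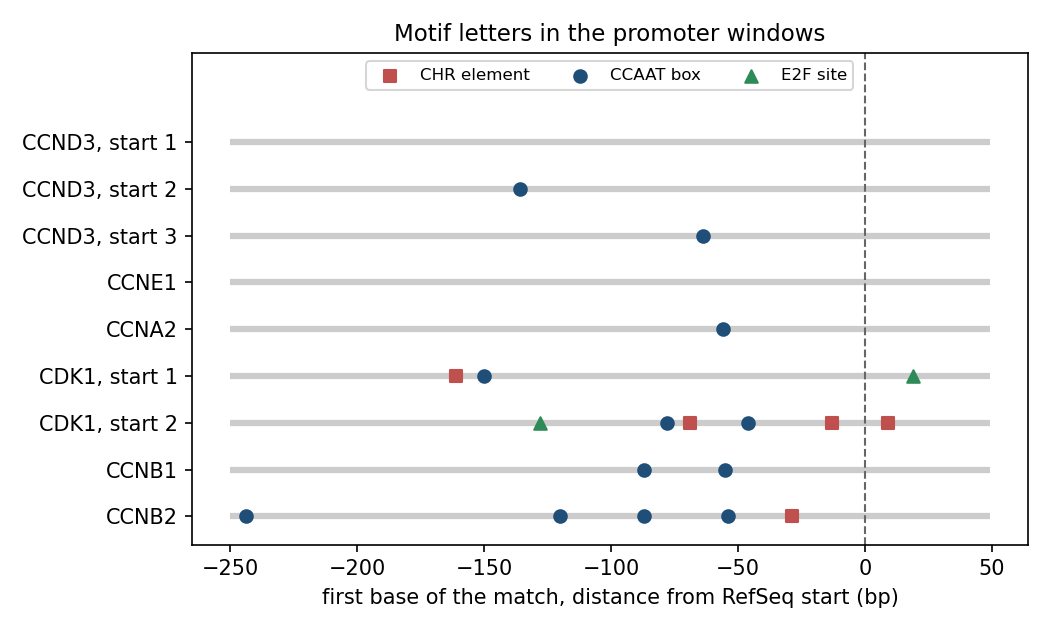
Positions of CHR, CCAAT and E2F matches in the 9 promoter windows of 6 members, with the distance of the first base of each match from the RefSeq start in bp on the x axis and 1 line per window. Grey bars span the window and the dashed line is the start. CCAAT boxes appear at CCNA2, CCNB1, CCNB2, CDK1 and 2 of the 3 CCND3 starts, whereas CCNE1 has no match to the letters searched.

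The base means of the members ran from 264.0 for CCNE2 to 52963 for CCND1, with a median of 1211, against a median of 149.8 over all listed genes. The median member had a higher base mean than 77.7% of the listed genes. Long transcripts collect more reads, so a rank by base mean also reflects length. Ratios between members were therefore taken after division by the merged length of all annotated exons (GENCODE 44), and again by the longest transcript where that changes what they show. Per kb of merged exons, the median member stood at 373.7 normalized counts, and the median of all listed genes was 51.3. All members are protein-coding, as are 15758 of the listed genes. Among protein-coding genes the median percentile of the members by base mean was 65.1, and no value per kb was computed for that set.

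Among the G1 cyclins, CCND1 (ENSG00000110092), on chromosome 11 from 69641156 to 69654474 of GRCh38, had a base mean of 52963 and 11124 per kb. CCND2 (ENSG00000118971), on chromosome 12 from 4269771 to 4305353, had 8951 and 1121 per kb. CCND3 (ENSG00000112576), on chromosome 6 from 41934934 to 42050357, had 1220 and 211.8 per kb. Per kb of merged exons, CCND1 was thus 9.93 times CCND2 and 52.5 times CCND3, and CCND2 was 5.29 times CCND3. Per kb of the longest transcript, the same ratios were 9.56, 24.5 and 2.56, so that the order held and the distance to CCND3 did not. CCND1 stood above 99.9% of all listed genes by base mean. Which line or treatment supplied these counts cannot be read from a pooled value.

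The E-type cyclins differed from each other in level. CCNE1 (ENSG00000105173), on chromosome 19 from 29811991 to 29824312, had 592.9, or 240.9 per kb. CCNE2 (ENSG00000175305) had 264.0, or 60.0 per kb, so that CCNE1 was 4.01 times CCNE2 per kb of merged exons. CCNE2 was the member nearest to the median of all listed genes, above 52.4% of them per kb.

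CDK2 (ENSG00000123374), the kinase partner of cyclins E and A, lies on chromosome 12 from 55966781 to 55972789 and had a base mean of 1952, or 502.2 per kb. CCNA2 (ENSG00000145386), on chromosome 4 from 121816444 to 121823883, had 1202, or 437.4 per kb. CDK2 was 2.08 times CCNE1 and 1.15 times CCNA2 per kb of merged exons, and 2.48 and 1.72 times per kb of the longest transcript. CCNA2 has a single annotated transcript, so that its level per kb does not depend on how exons are merged.

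Among the mitotic members, CCNB1 (ENSG00000134057), on chromosome 5 from 69167135 to 69178245, had a base mean of 2351, or 966.4 per kb. CCNB2 (ENSG00000157456), on chromosome 15 from 59105126 to 59125045, had 853.5, or 310.0 per kb. CDK1 (ENSG00000170312), on chromosome 10 from 60778331 to 60794852, had 847.2, or 216.7 per kb. CCNB1 was 3.12 times CCNB2, 4.46 times its kinase CDK1 and 2.21 times CCNA2 per kb of merged exons. Per kb of the longest transcript, the corresponding ratios were 3.40, 2.66 and 2.65. CDK2 was 2.32 times CDK1 by the first length and 1.73 times by the second.

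From high to low per kb of merged exons, the order was CCND1, CCND2, CCNB1, CDK2, CCNA2, CCNB2, CCNE1, CDK1, CCND3 and CCNE2. By this length CCNE1 was 1.11 times CDK1, and CDK1 was 1.02 times CCND3. Merged exons overstate the length of a gene with many isoforms, and CCND3 has 23 annotated transcripts and 5761 bases of merged exons against 2394 in the longest transcript. Divided by the longest transcript instead, CCND3 had 509.7 per kb and moved from place 9 to place 5, CDK1 had 434.9 and CCNE1 had 303.4. Both ratios then turned, with CCNE1 at 0.698 times CDK1 and CDK1 at 0.853 times CCND3. CCND1, CCND2, CCNB1 and CDK2 kept places 1 to 4 and CCNE2 place 10 under both lengths. The order of the members between them was therefore not fixed by these data.

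**Figure D2:**
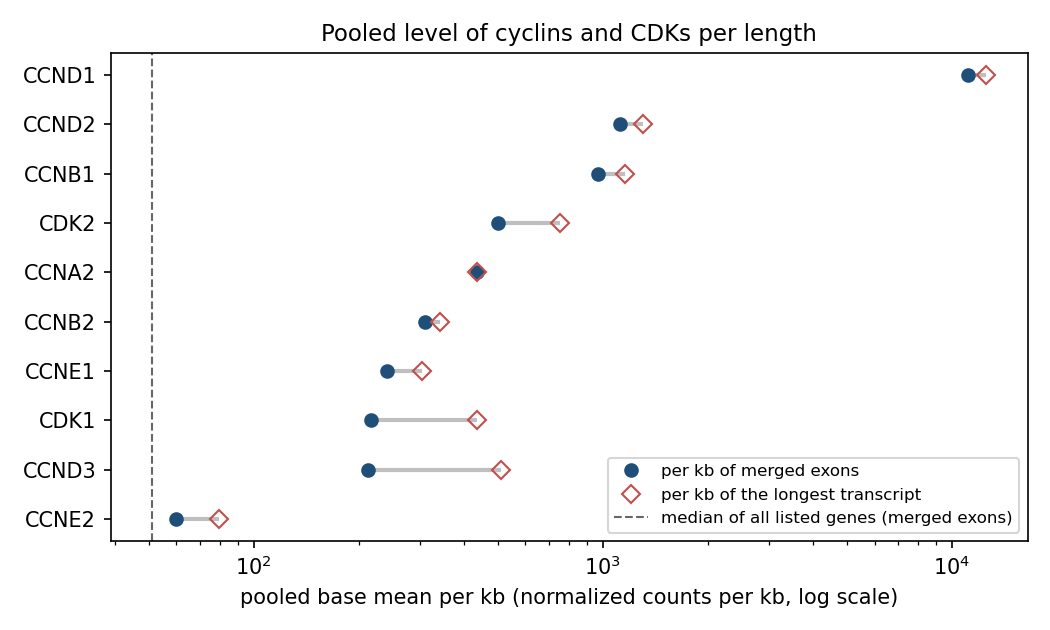
Pooled base mean of each member per kb, in normalized counts per kb on a log axis, with filled circles for merged exon length, open diamonds for the longest transcript and a grey line joining them. Values pool libraries of both treatments and lines and have no error bars, and CCND1 stands apart at 11124 per kb while CCNE2, at 60.0, lies next to the dashed median of all listed genes at 51.3.

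A list of 11 further genes, all of them in the tables, held other cyclins and CDKs and MNAT1, an assembly factor of the CDK-activating kinase. Their median was 199.2 per kb of merged exons, with CDK4, the main partner of D-type cyclins, highest at 1615 and CDK6, its relative, at 340.3. CDK3 had a base mean of 9.17 and CCNA1, the germline relative of CCNA2, 16.9. The 7 CDK inhibitor genes ranged from 102.4 per kb of merged exons for CDKN1C to 21511 for CDKN1A, and CDKN1A was the one gene of both lists above CCND1. Their median was 232.3 per kb. Per kb of the longest transcript, the middle gene of the other cyclins and CDKs was CCNH at 366.9. Among the inhibitors it was CDKN2B at 367.1. Places 5 and 6 of the members were then CCND3 at 509.7 and CCNA2 at 437.4. The distance of both lists from the members therefore depends on the length used. CDKN1A is a direct p53 target, and its pooled value contains Nutlin-3a and DMSO libraries alike.

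The study concerns pairs of promoters that fire toward each other, so the annotated genes around the starts of the members were listed. A start was taken as the outermost 5′ end of a gene in GENCODE 44. Within 2500 bp of a member's start, 4 members had a gene that starts on the opposite strand. The share of all listed genes with such a neighbour was not computed, so this count is not a trait of the members. At CCNE2 the start of NDUFAF6, a mitochondrial complex I assembly factor gene, lies 1145 bp inside the gene, so that both overlap at their 5′ ends. NDUFAF6 had a base mean of 477.4 and CCNE2 one of 264.0. These values count reads over all exons of each gene, so they do not show which start was used. Per kb of merged exons NDUFAF6 stood lower, at 38.6 against 60.0, and per kb of the longest transcript higher, at 128.7 against 79.3, so that no order was fixed. At CDK2 a long noncoding RNA gene, ENSG00000258554, starts 693 bp inside the gene on the opposite strand and was not listed in the tables.

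The other two such pairs point away from each other. TAF8, a subunit gene of the general transcription factor TFIID, starts 156 bp upstream of the outermost CCND3 start at 42050357. The RefSeq windows of CCND3, the nearest at chr6:42048639-42048938, all lie downstream of that start. TAF8 had a base mean of 1333, against 1220 for CCND3. Per kb the order turned, with 101.3 against 211.8 by merged exons and 199.7 against 509.7 by the longest transcript. Upstream of CCNB1, at 186 bp, a long noncoding RNA gene (ENSG00000248664) starts on the opposite strand and was not listed. Farther inside its host, CCND2-AS1 starts 6481 bp downstream of the start of CCND2 and had 1.11 per kb of merged exons, against 1121 for CCND2. Other listed genes on the opposite strand overlap a member but start beyond its 3′ end. INTS8 overlaps CCNE2 and had a base mean of 1614, against 264.0 for CCNE2. LTO1 at CCND1 had 770.9, EXOSC9 at CCNA2 679.1 and PMEL at CDK2 67.2. Per the paper's methods, counting was set to the strandness of each library. Whether reads of antisense partners were kept apart in these libraries was not checked here.

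Processed pseudogenes can share reads with their parent. Of the 4 genes named as copies of a member, CCND2P1 had a base mean of 28.6 and CCNB2P1 one of 24.1, and both copies of CCND3 were not listed. Where only uniquely mapped reads are kept, as in the paper's methods, reads that fit parent and copy equally well are missing from both.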

How the data were processed

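RNA was measured in 12 libraries of RPE-1 and HCT116 cells, grouped by the labels into 3 per line and treatment. Per the paper's methods, the authors trimmed and corrected reads, removed ribosomal reads, mapped them with segemehl to hg38 and counted uniquely mapped reads on exons. Counting was set to the strandness of each library. HCT116 cells are not named in those methods. The submitters' processing notes name Trimmomatic 0.39, cutadapt 3.3, SAMtools 1.12, featureCounts 2.0.1 and, for the comparison, DESeq2 1.32.0. Libraries were depleted of ribosomal RNA per the labels, whereas the paper's methods name poly(A) selection.

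The deposited signal used here is the base mean, a mean of normalized counts made by the authors. The other value columns hold the authors' own comparison of the treatments (fold change, standard error, test statistic and p-values) and were not used. As no values per library were analysed, the planned tests were not run, and the depth per library is unknown.

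Base means were ranked among the 25914 listed genes and divided by exon length from GENCODE 44, on the same build, in which 25836 listed genes were found by identifier. Promoter windows came from RefSeq (GRCh38.p14). Ranking, exon merging and motif search were tested on simulated input. Every member is named whatever its value, and members, lists and motifs were chosen with earlier results of these data known. Computation used scipy 1.17.1, pandas 2.3.3, matplotlib 3.10.9 and numpy 2.4.6 under Python 3.11.15.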

Additional observations from a re-analysis of the deposited data

How the results depend on the processing

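The median percentile of the members was 77.7 among all listed genes by base mean. It was 72.2 among genes with a base mean of at least 10 and 58.8 among those with at least 100, since both limits remove genes of low base mean. Among protein-coding genes, a set chosen by gene type and not by level, it was 65.1. Per kb of exon it was 83.4, and per kb of the longest transcript, a length chosen after seeing the data, 82.7. Of 50 percentiles of single members under these alternatives, 48 left the exact 95% binomial interval of the main value and 37 were lower than it. A rank among all listed genes is not a sample, so that this interval measures no error in a member's level. The planned tests of Nutlin-3a against DMSO, of the difference between the lines and their alternatives (another normalization or tool, a pseudocount, leaving out a replicate) were not run, because no values per library were analysed. No paired analysis was possible because the columns used carry no replicate. Depth per library is unknown.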
